A study of Homo sapiens with 22 samples.

Results

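Contactins and the L1 family are related cell adhesion molecules, and 10 of their genes were followed here through 4 lists of chromatin regions: CNTN1, CNTN2, CNTN3, CNTN4, CNTN5, CNTN6, CHL1, L1CAM, NRCAM and NFASC. A region counted for a gene when it overlapped the RefSeq body of that gene on build hg38 or the 50 kb on either side. This gave 745 of the 532810 regions in the 4 lists. NFASC and CNTN2 are neighbours whose windows overlap, so 28 of these regions counted for both. The genes were chosen on the ATAC region counts of these same lists, so their counts are given as a description, with no test.

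The lists came from a series of 22 libraries in 6 groups, of which 12 libraries in 3 groups bear on these genes. HFFc6 is subclone c6 of a line of human foreskin fibroblasts immortalised with telomerase, and its ATAC list rests on 8 libraries. The H1 line, derived from a human embryo and pluripotent, gave the other ATAC list from 2 libraries. ATAC-seq uses the transposase Tn5 to cut open chromatin. CTCF is a DNA-binding protein at the feet of chromatin loops. It was mapped in HFFc6 by Cut&Tag, where Tn5 is brought to the protein by an antibody, in 2 libraries. Their titles start with HFF1, but the cell line given is HFFc6. A further CTCF list is named for human embryonic stem cells but is described by no sample label, and for its assay and libraries the sources used here give nothing. It appears here as the hESC-named CTCF list. The labels R and T on the HFFc6 ATAC libraries are not explained, and whether libraries came from separate cultures is not stated. Each list was a single call for its group with no value per library, so no spread between replicates can be given and no test between cell lines was possible. "HFFc6-only" and "H1-only" mean absent from the other list by 1 bp overlap, not closed in the other cells.

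Contactins are held to the outer face of the membrane by a lipid anchor, whereas L1 family proteins span the membrane and bind the ankyrin and spectrin skeleton inside the cell. Both carry immunoglobulin-like and fibronectin-like domains. They are best known from neurons, where they guide axons, hold axons and glia together and organise nodes of Ranvier.

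The HFFc6 ATAC list held 155746 regions and the H1 ATAC list 189982. The HFFc6 CTCF list held 82297 and the hESC-named CTCF list 104785. The calls differed in firmness: a −log10 q of at least 10 (q being the peak caller's adjusted p) was reached by 85.2% of HFFc6 ATAC regions, against 48.4% of H1 ATAC, 69.7% of HFFc6 CTCF and 60.5% of hESC-named CTCF regions. At the 10 genes those shares were 86.7%, 41.6%, 56.6% and 53.96%. Marker genes were checked against the labels by whether an ATAC region lay within 1 kb of a start, or of either end of a gene without a start window. Of 8 fibroblast markers, 8 had one in HFFc6 and 6 in H1. Of 7 embryonic stem cell markers, 5 had one in H1 and 2 in HFFc6, and POU5F1 and NANOG had none in either list. Of 7 neural markers, 7 had one in H1 and 3 in HFFc6. Of 4 epithelial markers, 4 had one in H1 and 1 in HFFc6. Whether neural or other cells in the H1 culture had a part in the counts of these neuronal genes was not tested.

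The sequences before the starts are shown first, because the genes differed in which lists had an ATAC region at their start. RefSeq (GRCh38.p14) gave 19 start windows for the 10 genes, each running from 250 bases before to 50 bases after a start. CNTN3, CNTN5, NRCAM and NFASC each had a window overlapped by ATAC regions of both lists. CNTN1, CNTN2, CNTN4, CNTN6 and CHL1 each had one overlapped in H1 alone. L1CAM had none in either list, and no gene had one overlapped in HFFc6 alone. At NRCAM the HFFc6 region, chr7:108454519-108456427, reached only into bases after the start, so neither the start itself nor the bases printed for it lie in an HFFc6 region. Over all 15812 protein-coding genes with a window, 66.6% had a window overlapped in both lists and 7.56% in H1 alone. H1 regions overlapped a window of 74.1% of them and HFFc6 regions of 71.8%. For the members these were 9 and 4 of 10. The 250 bases before the start are printed 5′ to 3′ in the direction of the gene, with every CpG, the base pair step that DNA methylation acts on, in capitals. CNTN3, CNTN5, NRCAM and NFASC come first, all but NRCAM with regions of both lists at the start itself. The 5 genes with a window overlapped in H1 alone follow. For CNTN2 the more upstream of its 2 overlapped windows is printed.
CNTN3, chr3:74614660-74614909, minus strand: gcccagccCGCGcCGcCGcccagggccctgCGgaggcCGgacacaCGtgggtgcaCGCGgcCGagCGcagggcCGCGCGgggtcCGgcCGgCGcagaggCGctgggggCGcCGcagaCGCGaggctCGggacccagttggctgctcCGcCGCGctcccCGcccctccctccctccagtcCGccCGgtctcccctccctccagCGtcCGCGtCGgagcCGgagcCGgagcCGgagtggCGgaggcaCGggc
CNTN5, chr11:99020699-99020948, plus strand: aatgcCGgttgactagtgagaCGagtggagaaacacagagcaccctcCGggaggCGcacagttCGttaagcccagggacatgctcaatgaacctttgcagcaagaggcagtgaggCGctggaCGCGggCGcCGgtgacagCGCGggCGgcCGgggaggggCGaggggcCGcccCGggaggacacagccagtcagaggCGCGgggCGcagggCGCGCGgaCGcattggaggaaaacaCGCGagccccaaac
NRCAM, chr7:108456437-108456686, minus strand: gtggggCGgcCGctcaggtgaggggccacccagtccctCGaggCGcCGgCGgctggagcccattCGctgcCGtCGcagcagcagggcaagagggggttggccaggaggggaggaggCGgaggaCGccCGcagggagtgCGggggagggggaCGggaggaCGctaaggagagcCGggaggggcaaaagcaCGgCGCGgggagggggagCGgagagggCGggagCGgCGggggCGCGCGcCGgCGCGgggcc
NFASC, chr1:204828402-204828651, plus strand: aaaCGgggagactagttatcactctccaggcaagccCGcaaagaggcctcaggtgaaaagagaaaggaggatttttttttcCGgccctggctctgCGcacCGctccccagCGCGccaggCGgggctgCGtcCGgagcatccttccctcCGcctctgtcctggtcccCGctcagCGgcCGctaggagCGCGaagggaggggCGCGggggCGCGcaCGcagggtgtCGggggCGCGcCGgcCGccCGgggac
CNTN4, chr3:2098616-2098865, plus strand: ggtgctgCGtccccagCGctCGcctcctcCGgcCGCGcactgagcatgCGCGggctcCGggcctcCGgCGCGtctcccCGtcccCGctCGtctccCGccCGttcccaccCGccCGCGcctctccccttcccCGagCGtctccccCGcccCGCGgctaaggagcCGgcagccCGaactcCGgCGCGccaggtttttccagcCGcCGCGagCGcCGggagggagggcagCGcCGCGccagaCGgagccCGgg
CNTN1, chr12:40827934-40828183, plus strand: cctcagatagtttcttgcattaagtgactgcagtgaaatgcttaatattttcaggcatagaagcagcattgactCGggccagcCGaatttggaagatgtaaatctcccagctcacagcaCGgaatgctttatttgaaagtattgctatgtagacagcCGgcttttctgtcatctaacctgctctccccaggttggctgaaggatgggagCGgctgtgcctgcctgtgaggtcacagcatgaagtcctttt
CNTN2, chr1:205042699-205042948, plus strand: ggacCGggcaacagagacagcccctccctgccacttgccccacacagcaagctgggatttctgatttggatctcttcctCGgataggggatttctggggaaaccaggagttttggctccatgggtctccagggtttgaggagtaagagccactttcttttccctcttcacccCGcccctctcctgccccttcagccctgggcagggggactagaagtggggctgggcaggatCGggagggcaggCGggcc
CNTN6, chr3:1092774-1093023, plus strand: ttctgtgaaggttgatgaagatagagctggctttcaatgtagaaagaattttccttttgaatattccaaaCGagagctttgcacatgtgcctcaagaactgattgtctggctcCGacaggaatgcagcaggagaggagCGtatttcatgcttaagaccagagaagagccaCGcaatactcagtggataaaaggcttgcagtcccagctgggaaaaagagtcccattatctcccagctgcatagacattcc
CHL1, chr3:196513-196762, plus strand: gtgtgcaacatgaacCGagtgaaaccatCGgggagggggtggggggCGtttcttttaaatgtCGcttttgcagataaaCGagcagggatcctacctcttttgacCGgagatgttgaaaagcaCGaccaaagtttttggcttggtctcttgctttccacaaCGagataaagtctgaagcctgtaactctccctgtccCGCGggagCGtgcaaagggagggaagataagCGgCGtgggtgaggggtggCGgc

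The starts with regions of both lists had 38 CpGs before CNTN3, 27 before NFASC and 26 before CNTN5. The NRCAM start had 29. Of the windows overlapped in H1 alone, those of CNTN1 had 5, CNTN6 4 and CHL1 14. The CNTN1 window lies inside the gene, with its H1 summit 136 kb from the 5′ end, where no bases were counted. CNTN2 had 5 before its upstream start and 13 before the other, which lay nearer the H1 summit (0.047 against 0.31 kb), and a second NRCAM window, inside the gene, had 1. CNTN4, also overlapped in H1 alone, had 40 CpGs, the highest count of the 19 windows, and a GC content of 79.2%. Over all protein-coding start windows the median count was 22 CpGs (interquartile range 15 to 28) in the 13093 windows overlapped in both lists. It was 11 (4 to 22) in the 1845 overlapped in H1 alone, 8 in the 1871 overlapped in HFFc6 alone and 3 in the 5346 overlapped in neither. CNTN4 thus lay above the interquartile range of its class.

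Short motifs were counted on both strands of the same 250 bases. The GC box GGGCGG was found in 8 of 19 member windows and in 42.6% of all 35116 windows. This is a larger set than the 22155 protein-coding start windows used for the CpG counts. The letters GGNGGCAG, part of the CTCF consensus, were found in 1 window, the second of CNTN2, and in 13.4% of all windows. TATAAA, the AP-1 motif TGANTCA and the E-box CACGTG each occurred in 1 member window, against 10.7%, 6.57% and 6.34% of all windows. The octamer ATGCAAAT was in none, against 1.63%.

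The start regions themselves had these peak values, given as the authors' fold enrichment over background. CNTN3 had 8.07-fold in HFFc6 (−log10 q 294) and 7.92-fold in H1 (23.2). CNTN5 had 10.7-fold in HFFc6 and 10.02-fold in H1. At NFASC, the only member whose start lay in regions of all 4 lists, the ATAC values were 6.51 in HFFc6 and 11.7 in H1, and the CTCF values 7.47 in HFFc6 and 11.0 for the hESC-named list. NRCAM had 6.90-fold in H1 and 4.44-fold in HFFc6, and the HFFc6 summit lay 1.21 kb from the start. The NRCAM window inside the gene, chr7:108328477-108328776, was overlapped in H1 alone at 11.0-fold. Among the other windows overlapped in H1 alone, the fold enrichment was 14.1 at CNTN1, 11.4 at CNTN6, 7.55 at CNTN4, 7.19 at CNTN2 and 6.003 at CHL1. Of these, CNTN4 and CNTN6 were 933 and 716 kb away from the nearest HFFc6 ATAC summit. For CNTN1, L1CAM and NRCAM the windows did not include the 5′ end of the gene record. At NRCAM that end, chr7:108456720, lay just upstream of the outermost window, chr7:108456387-108456686. At its 5′ end CNTN1 had an H1-only region at chr12:40692087-40692738, 15.9-fold with a −log10 q of 141. L1CAM had a region shared by both lists, 5.58-fold in HFFc6 and 3.03-fold in H1, with summits at -0.925 and -0.383 kb from its 5′ end.

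Across whole windows the 10 genes had 128 HFFc6 ATAC regions and 425 H1 ATAC regions. In HFFc6, 86 of 128 were HFFc6-only, or 67.2% (95% Wilson interval 58.7 to 74.7%), beside 65.3% of that whole list. In H1, 378 of 425 were H1-only, or 88.9% (85.6 to 91.6%), beside 68.2% of that whole list. These intervals cover counting error only. Summed over genes, 89 HFFc6-only stood against 385 H1-only regions. H1-only regions outnumbered HFFc6-only ones at 9 of 10 members, all but CNTN3. The same was so for 41.1% of all 19970 protein-coding genes, while 48.4% had more HFFc6-only regions. Among the 1396 genes of 200 kb or more, 53.0% had more H1-only regions. With a −log10 q of at least 10 asked of both lists, 7 of 10 members had more H1-only regions, all but CNTN2, CNTN3 and NRCAM. That share was then 20.8% of all genes and 26.0% of those of 200 kb or more, with 68.6% of all genes having more HFFc6-only regions. H1-only regions were then 81.9% at the members and 57.3% in the whole list, and 72.1% of the whole HFFc6 list was HFFc6-only. At CNTN2 and NRCAM, HFFc6-only regions were then the more numerous.

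**Figure D1:**
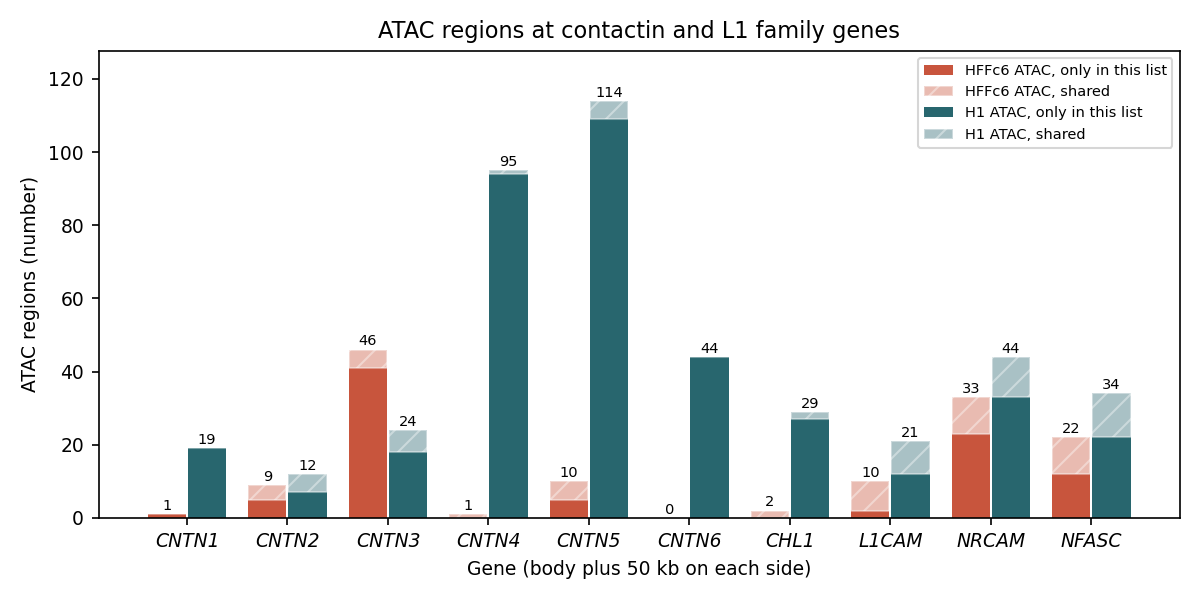
Number of ATAC regions (vertical axis) at each of the 10 genes (horizontal axis) in the HFFc6 list (red) and the H1 list (green), split into regions only in that list (solid) and regions shared by 1 bp with the other list (hatched). CNTN4, CNTN5 and CNTN6 have 95, 114 and 44 regions in H1 and 1, 10 and 0 in HFFc6, while CNTN3 has more in HFFc6, 46 against 24.

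CNTN5, whose protein NB-2 is known from the auditory pathway, spans 1338 kb of chromosome 11. It had 114 H1 ATAC regions, 109 of them H1-only, and 10 HFFc6 regions, 5 of them HFFc6-only. The H1-only regions were spread along the gene, with 31, 32 and 42 in 3 equal parts from 5′ to 3′. In HFFc6 a stretch of 860 kb of the window had no region. A −log10 q of at least 10 was reached by all 10 HFFc6 regions, including the shared one at the start. The firmest HFFc6 region, chr11:100403496-100404796 (15.2-fold), lay beyond the 3′ end of the gene and was shared with H1. The firmest H1 region, chr11:99271583-99271982 (22.9-fold, −log10 q 88.1), was H1-only and lay 251 kb into the gene.

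CNTN4, a contactin known from axon guidance in the olfactory and visual systems, had 95 H1 ATAC regions, 94 of them H1-only. In HFFc6 it had 1 region in a window of 1059 kb, chr3:3031136-3031769, at 3.36-fold and a −log10 q of 12.2. That region was shared and lay 933 kb from the start, near the 3′ end. The H1-only regions again ran along the whole gene, 30, 27 and 29 in 3 equal parts from 5′ to 3′. The firmest, chr3:2156176-2156734, had a 26.95-fold enrichment and a −log10 q of 139, higher than 99.3% of its list. It lay 57.5 kb into the gene and within a CTCF region of the hESC-named list, chr3:2156024-2157067 (17.4-fold).

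CNTN6, whose protein NB-3 is a ligand of the Notch pathway, had 44 H1 ATAC regions and none in HFFc6, so each of the 44 was H1-only. Of all protein-coding genes, 3.81% had no HFFc6 ATAC region in their window, and of those of 200 kb or more, 1.79%. The firmest H1 region, chr3:1387601-1388322 (21.985-fold, −log10 q 82.5), lay 295 kb into the gene. Only 15 of the 44 had a −log10 q of at least 10, and the median was 5.30 against 9.14 for the whole H1 list.

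CNTN1, the contactin that joins neurofascin and CNTNAP1 at the paranodes of myelinated axons, had 19 H1 ATAC regions, all H1-only. HFFc6 had 1 region, chr12:40942408-40942641, which was HFFc6-only and had a −log10 q of 51.3. CNTN1 was the sparsest of the members in H1, with 3.96 regions per 100 kb of window. CNTN2, known as TAG-1 and found on early axons, is the shortest contactin gene and had 9 HFFc6 and 12 H1 ATAC regions. Its HFFc6-only and H1-only counts, 5 and 7, were close. Its firmest region in both ATAC lists, at chr1:205121415-205122827 in HFFc6 (17.0-fold), lay in the neighbouring gene RBBP5, 79.3 kb from the start of CNTN2.

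CNTN3, known as BIG-1 and also a brain contactin, was the member with the opposite pattern. It had 46 HFFc6 ATAC regions, 41 of them HFFc6-only, and 24 H1 regions, 18 of them H1-only. Of the 46 HFFc6 regions, 43 reached a −log10 q of at least 10, and their median was 73.9, against 58.1 for the whole list. Of the H1-only regions, 5 of 18 passed that limit. The HFFc6-only regions ran from upstream through the gene, with 7 before its 5′ end, 15, 10 and 8 in 3 equal parts of it and 1 beyond its 3′ end. The firmest, chr3:74623665-74625002, had an 18.3-fold enrichment and a −log10 q of 746. It lay 9.79 kb upstream, was HFFc6-only and overlapped an HFFc6 CTCF region. In the firmest H1 region, chr3:74402828-74403410 (17.9-fold), both ATAC lists and the hESC-named CTCF list met. CNTN3 made up 41 of the 52 HFFc6-only regions of the 6 contactins. Without CNTN3 the HFFc6-only share of HFFc6 regions was 54.9% in place of 67.2%.

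**Figure D2:**
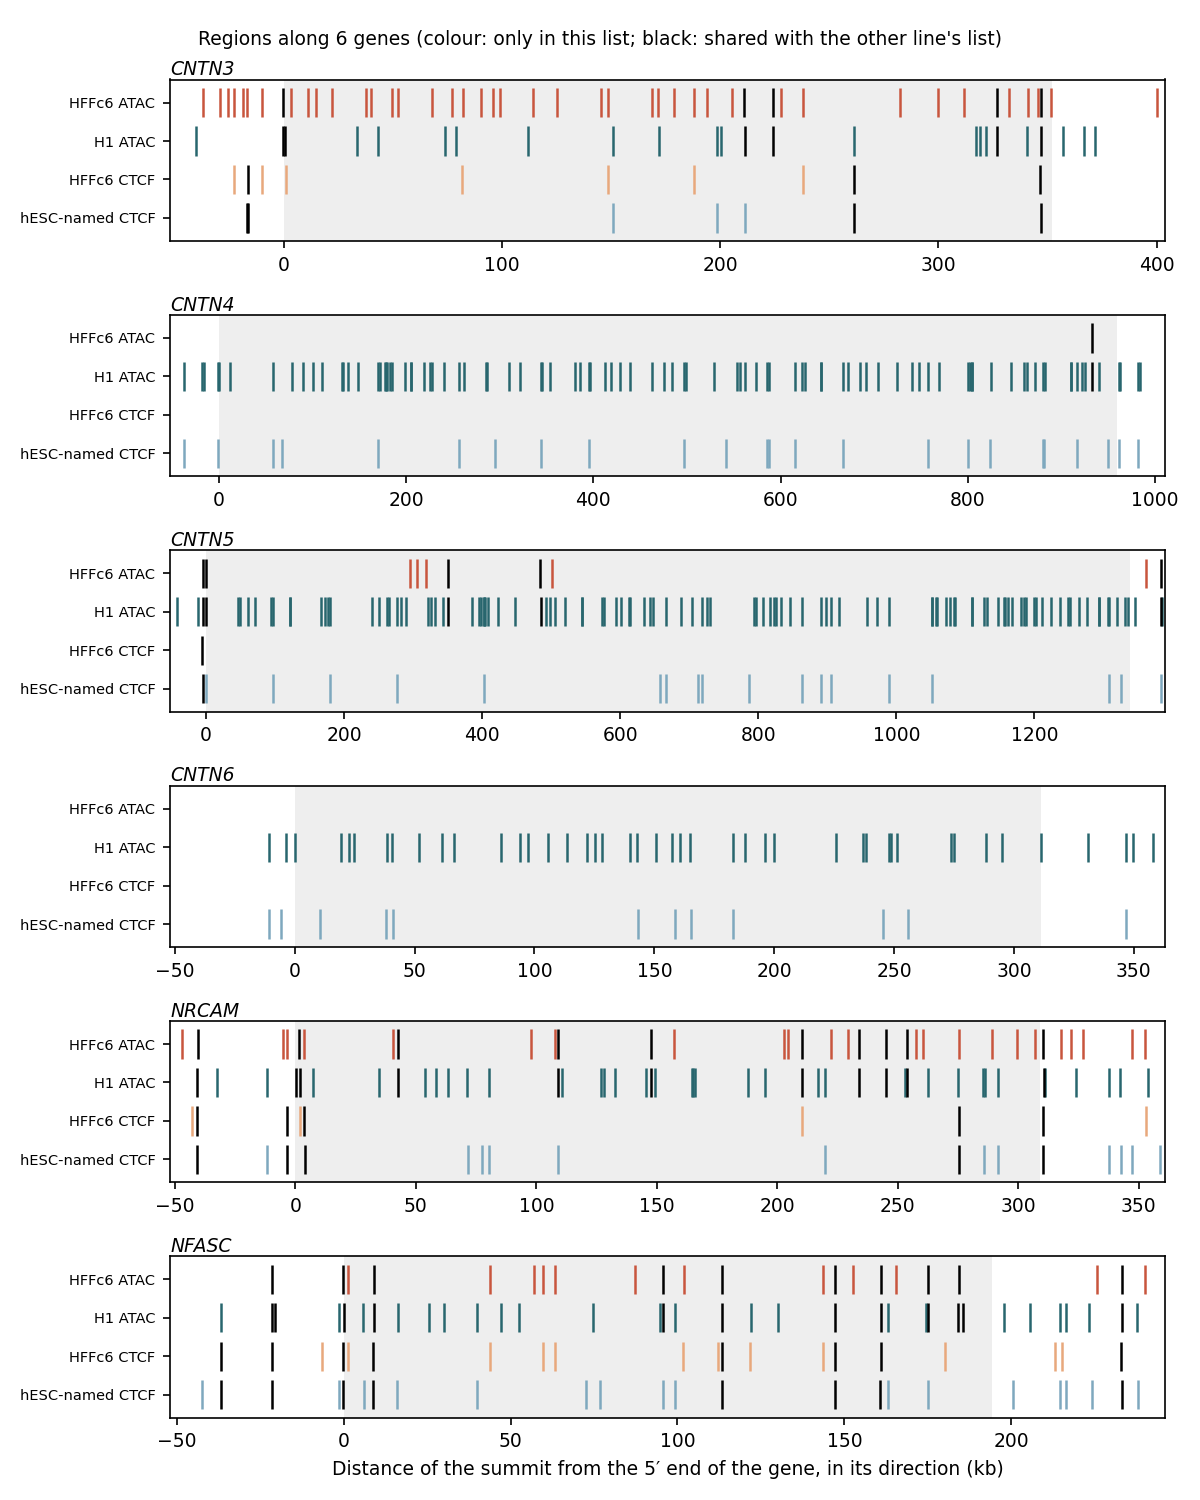
Position of each region's summit along 6 of the genes (horizontal axis, distance in kb from the 5′ end of the gene in its own direction; grey, the gene body) in the 4 lists (rows). Coloured ticks are regions only in that list and black ticks are shared with the other cell line's list; the H1 rows of CNTN4, CNTN5 and CNTN6 are filled along the gene over HFFc6 rows of 1, 10 and 0 regions, and CNTN3 has 41 HFFc6-only ticks from upstream to its 3′ end.

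CHL1, the close homologue of L1 that also binds semaphorin receptors, had 29 H1 ATAC regions, 27 of them H1-only, and 2 HFFc6 regions, both shared. Both HFFc6 regions lay in the last of 3 equal parts of the gene, with fold enrichments of 3.80 and 2.66. The stronger, chr3:354462-354690, fell in the firmest H1 region of the gene, chr3:354294-354807 (18.4-fold, −log10 q 59.1), and in regions of both CTCF lists.

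CHL1, CNTN6 and CNTN4 follow one another at the end of the short arm of chromosome 3. From the start of the CHL1 window to the end of the CNTN4 window, chr3:146763-3107959, there were 2.96 Mb with 260 H1 ATAC regions and 3 HFFc6 ATAC regions. Of the 260, 168 lay in the windows of the 3 genes and 92 between them. The longest stretch with no HFFc6 region was 2654 kb, against 76.8 kb in H1. The next HFFc6 region began 1.86 kb past this interval, and the next 1 Mb held 20 HFFc6 and 80 H1 regions. The CTCF lists differed in the same way, with 2 HFFc6 and 62 hESC-named regions in the 2.96 Mb.

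L1CAM, the founding member of the L1 family and an axon growth molecule on the X chromosome, had 10 HFFc6 ATAC regions, 8 of them shared. H1 had 21, of which 12 were H1-only. Its window is crowded, with 5 other coding genes (PDZD4, AVPR2, ARHGAP4, NAA10 and RENBP), and 11 of its 21 H1 regions lay in such genes. Within the gene body alone there was 1 HFFc6-only region against 2 H1-only ones. The firmest region of both ATAC lists, at chrX:153927574-153928675 in HFFc6 (15.3-fold, −log10 q 1022), lay 42.2 kb upstream and within regions of both CTCF lists.

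NRCAM, which with neurofascin gathers sodium channels at nodes of Ranvier, had ATAC regions along it in both lists. It had 33 HFFc6 regions, 23 of them HFFc6-only, and 44 H1 regions, 33 of them H1-only. Counting regions with a −log10 q of at least 10 in both lists turned this to 20 HFFc6-only and 14 H1-only. The firmest HFFc6 ATAC region of all members was here, chr7:108245856-108246885, 17.0-fold with a −log10 q of 1492, higher than 99.2% of its list. It was shared with H1 and lay 210 kb into the gene. The firmest H1 region of the window, chr7:108114148-108114586 (25.4-fold), was H1-only and lay in the neighbouring gene LAMB4.

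NFASC, neurofascin, which binds ankyrin at the axon initial segment and at nodes, had 22 HFFc6 and 34 H1 ATAC regions, with 12 HFFc6-only and 22 H1-only. Of its HFFc6 regions 10 were shared, and the firmest, chr1:204806918-204808380 (17.0-fold, −log10 q 452), lay 21.3 kb upstream of the gene. Its firmest H1 region, chr1:204791740-204792062 (21.0-fold), lay 36.7 kb upstream and was H1-only. Together the 4 L1 family genes had 37 HFFc6-only and 94 H1-only regions, and the 6 contactins 52 and 291.

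Set per 100 kb of window, the HFFc6 densities fell into 2 ranges. CNTN6 had 0, CNTN4 0.0944, CNTN1 0.208, CHL1 0.640 and CNTN5 0.695. The other 5 had 6.65 (CNTN2), 7.48 (NFASC), 8.02 (L1CAM), 8.07 (NRCAM) and 10.2 (CNTN3), around the median of 7.61 for all protein-coding genes. For genes of 200 kb or more the HFFc6 median was 6.48. It was 2.08 for 13 type II cadherins and 0.364 for 8 long genes picked as rich in H1-only regions, both counted below. The H1 densities had no such gap. They ran from 3.96 at CNTN1 and 5.31 at CNTN3 over 7.93 at CNTN5, 8.87 at CNTN2, 8.97 at CNTN4, 9.28 at CHL1, 10.7 at CNTN6, 10.8 at NRCAM and 11.6 at NFASC to 16.8 at L1CAM. The median of all genes in H1 was 7.64, and that of genes of 200 kb or more 7.28. The order of neighbours such as CNTN2 and CNTN4 cannot be tested, since each list is 1 call.

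**Figure D3:**
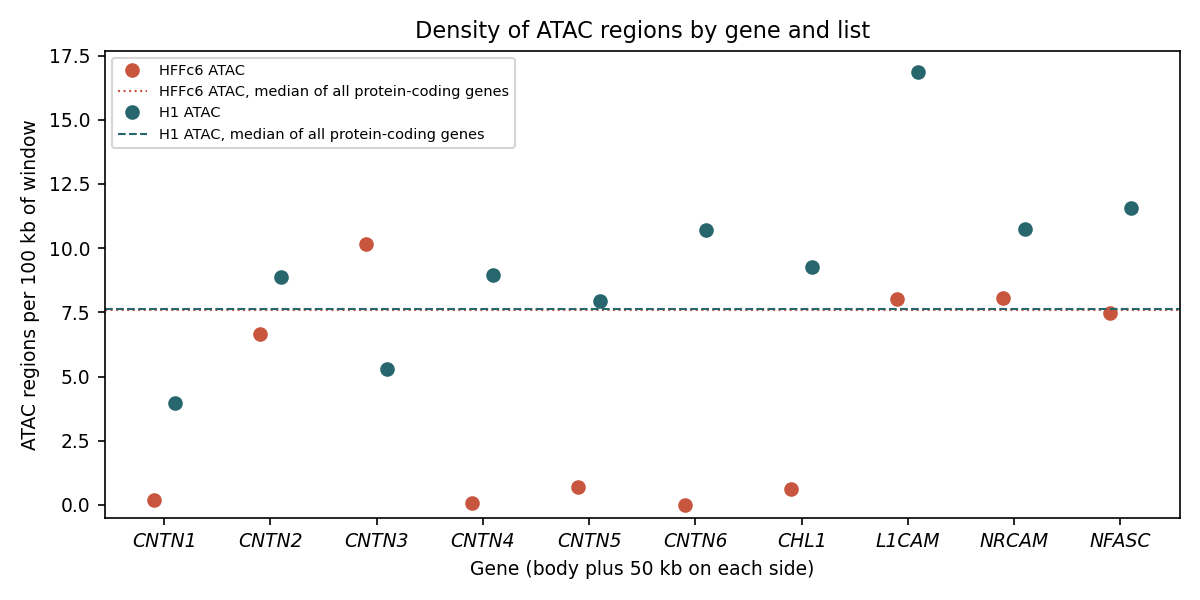
ATAC regions per 100 kb of window (vertical axis) at each gene (horizontal axis) in the HFFc6 list (red) and the H1 list (green), with the median of all protein-coding genes in each list as a line (7.61 and 7.64). In HFFc6, CNTN1, CNTN4, CNTN5, CNTN6 and CHL1 lie between 0 and 0.695 and the other 5 genes between 6.65 and 10.2.

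Of the 378 H1-only regions, 10 had their summit within 1 kb of a protein-coding start, or 2.65% (1.44 to 4.80%), beside 2.07% of H1-only regions in the whole list. Of the 47 shared H1 regions it was 7, or 14.9%, beside 21.7%. Of the 86 HFFc6-only regions it was 1, or 1.16%, beside 1.13%. In the body of a member gene lay 325 of the 378 and 67 of the 86. The part of a window taken up by the body ran from 24.7 of 124.7 kb at L1CAM to 1338 of 1438 kb at CNTN5. These counts were not set against that part, so they show no preference for gene bodies. H1-only regions had a median fold enrichment of 5.21, against 7.92 for the 47 H1 regions that were shared. In the whole H1 list these medians were 5.21 and 7.82. HFFc6-only regions had a median of 4.99 and shared ones 6.58, against 5.26 and 7.88 in the whole HFFc6 list.

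At the edge of the windows, 38 H1 and 21 HFFc6 ATAC regions lay 25 to 50 kb from a gene, just inside. From 50 to 75 kb, just outside, there were 34 and 24.

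The members had 53 HFFc6 CTCF regions and 139 regions of the hESC-named list. Of the hESC-named regions, 113 were only in that list, or 81.3% (95% Wilson interval 74.0 to 86.9%), beside 58.7% of the whole list. Of the HFFc6 CTCF regions, 27 were only in that list, or 50.9% (37.9 to 63.9%), beside 49.1%. Asking a −log10 q of at least 10 in both lists, the HFFc6 share was 36.7% at members beside 44.9% of the whole list, and the hESC-named share 74.7% beside 49.6%. CNTN4 and CNTN6 had 24 and 12 regions in the hESC-named list and none on the HFFc6 side. CNTN5 had 19 against 1, CNTN1 13 against 3 and CHL1 9 against 1. The remaining genes had CTCF regions in both: L1CAM 12 hESC-named and 7 HFFc6, NRCAM 17 and 9, NFASC 24 and 20, CNTN2 9 and 6, and CNTN3 7 and 10. CNTN3 was thus the member with more CTCF regions in HFFc6, as it was for ATAC. For how many of all protein-coding genes HFFc6 CTCF regions were absent or fewer was not counted. Per 100 kb of window, the median of the 10 members was 1.41 HFFc6 and 2.90 hESC-named CTCF regions. Over all protein-coding genes these medians were 5.03 and 5.46, and over those of 200 kb or more 2.57 and 3.57.

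**Figure D4:**
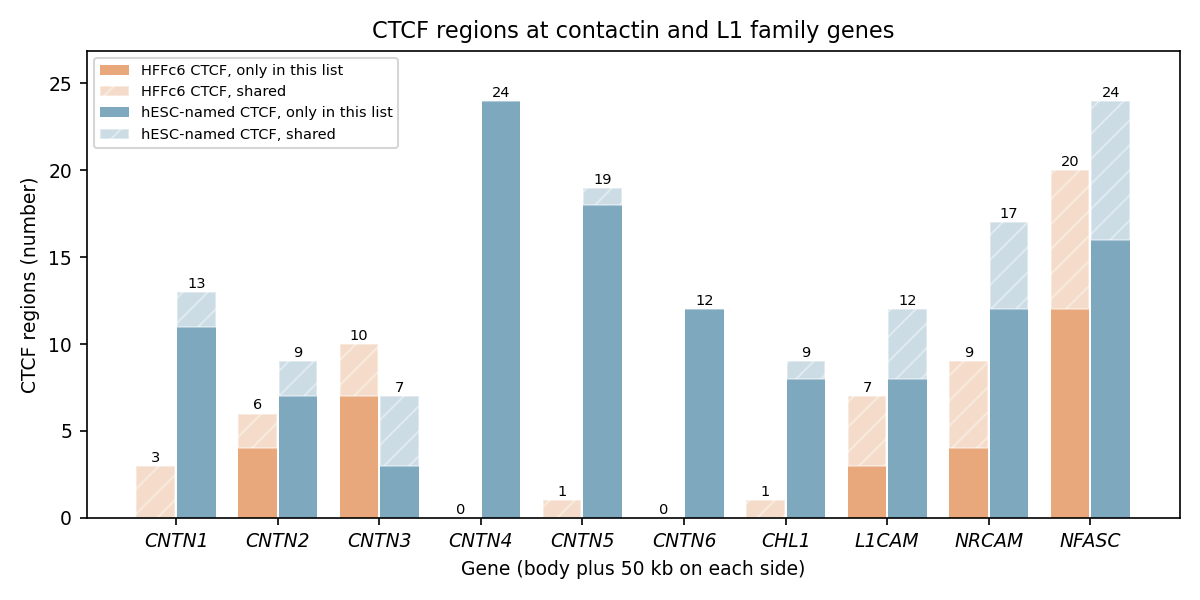
Number of CTCF regions (vertical axis) at each gene (horizontal axis) in the HFFc6 Cut&Tag list (orange) and the hESC-named list (blue), split into regions only in that list (solid) and shared by 1 bp (hatched). CNTN4 and CNTN6 have 24 and 12 regions in the hESC-named list and 0 in HFFc6, and CNTN3 has 10 HFFc6 and 7 hESC-named regions.

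The CTCF regions were set against the ATAC regions. Of the HFFc6 CTCF regions, 39 of 53 overlapped an HFFc6 ATAC region, or 73.6% (60.4 to 83.6%), beside 85.0% of the whole list. Of the hESC-named CTCF regions, 94 of 139 overlapped an H1 ATAC region, or 67.6% (59.5 to 74.8%), beside 72.6%. Cut&Tag itself uses Tn5, which cuts open chromatin, and the part of that in the HFFc6 overlap was not tested. At CNTN4, 19 of 24 hESC-named CTCF regions lay in H1 ATAC regions and none in HFFc6 ATAC regions, of which its window held only 1. Over all members 31 of 139 hESC-named regions lay in HFFc6 ATAC regions, or 22.3% (16.2 to 29.9%), beside 42.7% of the whole list. HFFc6-only CTCF regions lay in HFFc6-only ATAC regions in 6 of 7 cases at CNTN3, or 85.7% (48.7 to 97.4%), and in 14 of 27 at all members, or 51.9%, beside 66.6% of the whole list. At CNTN1 the 3 HFFc6 CTCF regions lay in no ATAC region of either line, and all 3 were shared with the hESC-named list. Seen from the ATAC side, 98 of 425 H1 regions, or 23.1% (19.3 to 27.3%), held an hESC-named CTCF region, beside 41.3% of the whole H1 list. For H1-only regions it was 71 of 378, or 18.8%, beside 30.1%.

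CTCF regions found in both CTCF lists had the higher median fold enrichment. In the hESC-named list the median fold enrichment at members was 15.2 for the 26 shared regions and 5.30 for the 113 others, against 12.3 and 5.07 in the whole list. In HFFc6 it was 8.08 and 4.03, against 8.19 and 4.69. The strongest HFFc6 CTCF region of the members, chr1:204806820-204808489, lay 21.3 kb upstream of NFASC at 18.3-fold, with a −log10 q of 1394, above nearly all of its list. It overlapped the firmest HFFc6 ATAC region of NFASC and was found in all 4 lists. The strongest hESC-named region, chr1:204791576-204792307 at 27.1-fold, lay further upstream of NFASC, at 36.8 kb, and was shared with HFFc6 CTCF although no HFFc6 ATAC region lay there. The 1 HFFc6 CTCF region of CNTN5, chr11:99015560-99016468 (15.1-fold), lay 5.09 kb upstream of its start and was found in all 4 lists. The strongest at CNTN3, chr3:74376064-74376777 (14.7-fold), lay 238 kb into the gene in an HFFc6 ATAC region and was in neither H1 ATAC nor the hESC-named list. At starts, hESC-named CTCF regions overlapped a window of CNTN2, CNTN4, CNTN5 and NFASC, and HFFc6 CTCF regions one of NFASC alone. Over all protein-coding genes with a window these were 61.7% and 65.2%.

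Proteins that contactins and L1 family members bind or depend on were counted in the same way, from a list of 22 genes. Of these, 12 had more H1-only regions, 9 more HFFc6-only and 1 equal numbers, with 401 HFFc6-only and 623 H1-only regions in all. The 12 were 54.5% of the list, beside 41.1% of all protein-coding genes and 53.0% of those of 200 kb or more. The median length of the 22 genes was 241 kb, so their share was near that of long genes. The widest differences were at CNTNAP2, the partner of CNTN2 on axons, with 151 H1-only and 22 HFFc6-only regions, and at CNTNAP5, with 72 and 0. EPB41L3, a skeleton protein under the paranode, had 32 and 0, and CNTNAP4 26 and 0. PTPRG, a phosphatase receptor that binds CNTN3, CNTN4, CNTN5 and CNTN6, went the other way, with 65 HFFc6-only and 49 H1-only regions. So did ALCAM (31 and 11) and the semaphorin receptor NRP1 (23 and 3). Ankyrins were mixed: ANK3, ankyrin-G of nodes, had 31 HFFc6-only and 46 H1-only, and ANK2 had 43 and 41.

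Other adhesion genes and long genes were counted likewise. Of 13 type II cadherins, another adhesion family, 9 had more H1-only regions, with 326 H1-only and 88 HFFc6-only in all. The 9 were 69.2%, beside 41.1% of all protein-coding genes and 53.0% of those of 200 kb or more. CDH12 had 83 and 1 and CDH8 42 and 1, whereas CDH11, a cadherin of mesenchymal cells, had 10 and 19. A set of 8 other long genes had been picked as rich in H1-only regions, so its direction was fixed by the choice. Among its members are PTPRD, with 226 H1-only and 4 HFFc6-only regions, and LRP1B, with 147 and 4. The median difference between HFFc6-only and H1-only regions was -14 at the 10 contactin and L1 family genes, that of the cadherins -14, that of all genes of 200 kb or more -2 and that of all protein-coding genes 0.

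For the 3 members with the widest differences, the genes of 0.67 to 1.5 times their length with the most alike densities in the 4 lists were named. Likeness was the Euclidean distance in log2 of regions per 100 kb plus 0.5, over the 4 lists. For CNTN4, of 169 candidates, these were ADGRL3 (distance 0.254), with 87 H1 and 0 HFFc6 ATAC regions, and GRM7 (0.417), with 77 and 1. For CNTN5, of 83 candidates, they were NKAIN2 (0.506), with 109 and 6, and LINGO2 (0.532), with 86 and 6. For CNTN6, of 942, they were RIT2 (0.586), with 33 and 0, and BRINP3 (0.647), with 39 and 0. In each of these genes H1 ATAC regions outnumbered HFFc6 ones, as the choice by likeness fixes.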

How the data were processed

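The values came from 4 peak lists that the authors deposited, 3 of them each for one labelled group, with no values per library. The submitters' processing notes name BWA, MACS2, bedtools and build hg38; for versions, filters and any Tn5 shift the sources used here give nothing. The deposited score of each region was left unused. MACS2's ratio of signal over background is deposited as fold enrichment, and the deposited −log10 q-value is its adjusted p. Both belong to the call of a single list. They are also given side by side between lists. A −log10 q of at least 10 was asked of both lists, which differ in the share of regions that reach it. The lowest −log10 q in the lists is that of a q of 0.05. Peak lists do not tell how deeply libraries were sequenced.

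Regions on chromosomes 1 to 22 and X were used, and shared regions overlap the other cell line's list by at least 1 bp. Gene bodies and start windows came from RefSeq tables of GRCh38 patch 14. A region inside a neighbouring gene still counts for the member. The members and gene lists were chosen with earlier results of these data known. For each member the text names the region of highest −log10 q in each ATAC list, regions at start windows and CTCF regions, chosen by highest fold enrichment, with some of these left to counts. The 4 partners of widest difference were named by rule; other partners, cadherins and long genes were named after their values were seen. Intervals given beside shares are 95% Wilson intervals, and some shares are given without one.

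Alternatives were a −log10 q of at least 10, 50% coverage, no flank, a 100 kb flank, lists of equal length and 500 bp around summits. Leaving out CNTN3, or CNTN4 and CNTN5, was added after seeing the data. The overlap rules were tested in 2400 comparisons on simulated regions with 0 disagreements. Python 3.11.15, pandas 2.3.3, numpy 2.4.6, scipy 1.17.1 and matplotlib 3.10.9 were used. Left out, and not analysed here, were 10 libraries (SMC1, H3K4me3 and H3K27ac).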

Additional observations from a re-analysis of the deposited data

How the results depend on the processing

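H1-only regions outnumbered HFFc6-only ones at 7 to 9 of 10 members under the alternatives run on all 10 genes: 7 at a −log10 q of at least 10, 8 with lists of equal length or a 100 kb flank, and 9 otherwise. The lead of H1-only regions at CNTN1, CNTN4, CNTN5, CNTN6, CHL1, L1CAM and NFASC and that of HFFc6-only regions at CNTN3 kept their direction under each alternative run, L1CAM by 1 region within the gene body. CNTN2 turned to 2 more HFFc6-only regions at a −log10 q of at least 10 and with lists of equal length and had 11 of each, a difference of 0, with a 100 kb flank, and NRCAM to 6 more at a −log10 q of at least 10. At that limit the H1-only share was 81.9%, the HFFc6-only share of HFFc6 CTCF regions 36.7% and the share of HFFc6 CTCF regions in HFFc6 ATAC regions 86.7%. Asking 50% coverage gave an HFFc6-only ATAC share of 84.4% (108 of 128) and 49.6% of hESC-named CTCF regions (69 of 139) in H1 ATAC regions. The numbers counted, 128 and 139, were the same at 1 bp overlap. Median widths at the members were 675.5 bp for HFFc6 ATAC, 425 bp for hESC-named CTCF and 279 bp for H1 ATAC regions. Lists of equal length put 52.8% of HFFc6 CTCF regions in HFFc6 ATAC regions, that ATAC list being then cut to the length of the CTCF list. Without CNTN3 the HFFc6-only ATAC share was 54.9%. Without CNTN4 and CNTN5 the H1-only share was 81.0% and the share only in the hESC-named CTCF list 74.0%. The causes of these shifts were not tested. No paired analysis was possible because each list pools its libraries and no result comes from a test.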
